A study of Mus musculus with 18 samples.

Results

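The 36 genes described here are expressed by macrophages and microglia, and they were chosen by symbol from the 52636 genes of an RNA-seq count table of mouse RPE. The table holds 18 libraries of C57BL/6 mice at postnatal day 14, with 3 libraries in each of 6 groups. Uninjected mice were 1 group, and the others received AAV8 vectors in the subretinal space as newborns: GFP, nSrebp2 (the nuclear, active form of SREBP2, written nSREBP2 below), a control hairpin against LacZ (ctrl sh), *Lrp2* sh1 or *Lrp2* sh2. All vectors carried the *Best1* promoter, which is active in the RPE. Both eyes of a mouse were pooled, the retina and optic nerve were removed, and the RPE was loosened from the eyecup with papain. nSREBP2 was compared with GFP, and each *Lrp2* hairpin with ctrl sh. GFP and ctrl sh were also compared with uninjected, ctrl sh with GFP, and the hairpins with each other.

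Macrophages and microglia are myeloid cells that live in tissues and clear debris. Microglia occupy the retina, and other macrophages occupy the choroid beneath the RPE. The transcription factor PU.1 (*Spi1*) and the receptor for the growth factors CSF1 and IL-34 (*Csf1r*) define the lineage, complement C1q and Fc receptors serve uptake of targets, MHC class II presents peptides to T cells, and *Ccr2* with its ligand gene *Ccl2* brings monocytes in from the blood.

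All 36 genes had counts in all 18 libraries, and all passed the filter on low counts in each of the 7 comparisons. The lowest levels were 1.59 CPM for *Itgax* and 1.60 CPM for *Ccl2*, where CPM is counts per 1e+06 counts of a library scaled by TMM. *Itgam* stands on 2 rows of the table, and the second (at most 0.263 CPM) lies over the same exons and was left out of the values below. Per kilobase of exon, *Gpnmb*, a glycoprotein gene of melanosomes and phagocytes, was the highest in the uninjected libraries with a mean of 143.5 CPM, followed by *Spp1* with 58.6, *Lyz2* with 56.4, *C1qb* with 32.2, *Cd74* with 31.96 and *Csf1r* with 30.8. The lowest per kilobase were *Itgam* with 0.438, *Itgax* with 0.525 and *Trem2* with 0.613. Melanocytes and RPE also express *Gpnmb*, so it was left out of sums. Exons of *Itgam*, *Cd74* and *Spp1* overlap another gene on the same strand, and those of *Csf1r* and *Cx3cr1* a gene on the opposite strand, so these counts are less certain. *Lyz2* and the Fc receptor genes have close paralogs that can share reads.

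Between 8921885 and 13696934 reads were counted per library, and a count of 0 sets an upper limit of 3 counts, equal to 0.216 to 0.327 CPM, for counting error only. *Srebf2* had 233, 208 and 208 CPM in nSREBP2 and 83.5, 113 and 107 CPM in GFP libraries, with a log2FC of 1.10 (SE 0.11, adjusted *P* = 0.000121), and *Lrp2* was lower than with ctrl sh for sh1, a log2FC of −1.68 (SE 0.22, adjusted *P* = 0.00328), and for sh2, a log2FC of −1.60 (SE 0.21, adjusted *P* = 0.00109). The 3 nSREBP2 libraries had 2770 to 2901 counts on Y-linked genes and the 3 GFP libraries 2 to 4, so within this pair the sex of the mice and nSREBP2 cannot be told apart. The other libraries with such counts were uninjected replicate 3 and, of *Lrp2* sh2, replicates 2 and 3. The label RPE was checked against 9 RPE genes, whose summed level was 2784 to 7936 CPM in uninjected, 744 to 886 in GFP and 659 to 870 in nSREBP2 libraries, and *Rpe65* fell from 375, 955 and 1129 CPM in uninjected to 2.31, 1.06 and 1.58 CPM in GFP libraries. Summed fibroblast genes reached 18500 to 85270 CPM over the 18 libraries. With bulk RNA, a change in the number of cells of a type and a change in RNA per cell cannot be told apart.

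**Figure D1:**
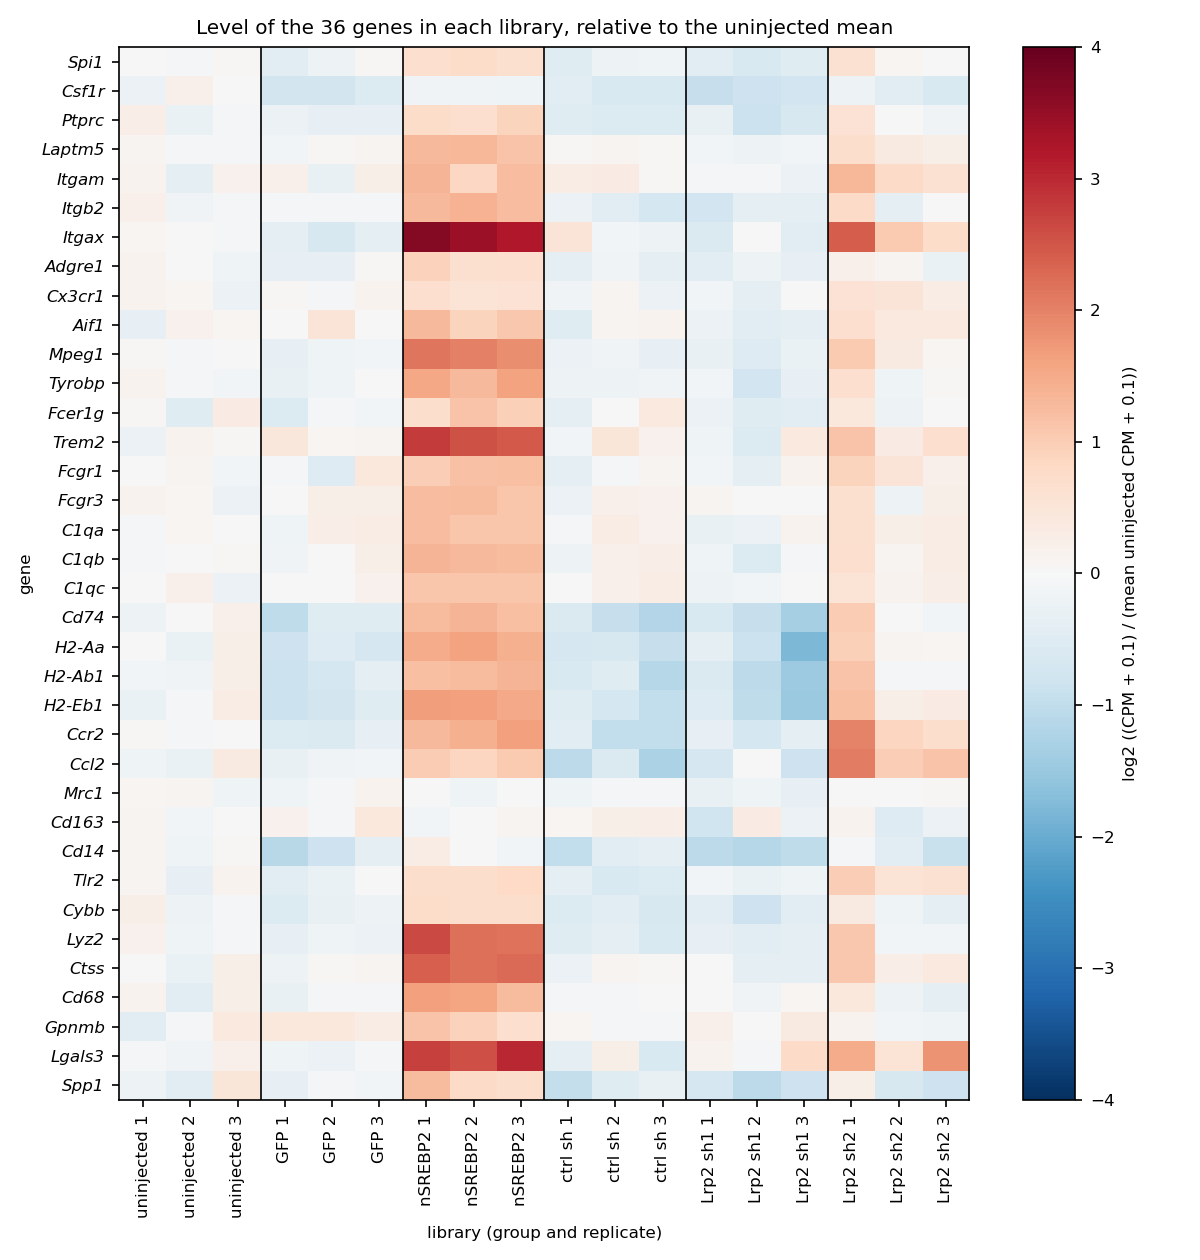
Level of the 36 genes (rows, ordered by role) in each of the 18 libraries (columns, grouped), as the log2 ratio of CPM to the mean of the uninjected libraries after adding 0.1 CPM to both. The 3 nSREBP2 libraries are red for most genes, *Lrp2* sh2 replicate 1 is the next reddest column, and the rows of *Mrc1* and *Cd163* stay pale.

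In nSREBP2 versus GFP, 25 of the 36 genes rose past both limits (adjusted *P* under 0.05 and log2FC above 1) and none fell, against 4.71% of the 17927 genes tested that rose. With the adjusted *P* alone, 34 of 36 were higher, against 12.6% of all genes. All 3 nSREBP2 libraries lay above all 3 GFP libraries for the same number, 34 of 36, where 19.3% of all genes did so. The median log2FC was 1.17 over the 36 genes and −0.02 over all genes. The exceptions were *Mrc1* and *Cd163*, 2 receptors of resident scavenging macrophages. Summed without *Gpnmb*, the genes had 2394 to 2704 CPM in nSREBP2, 875 to 1037 CPM in GFP and 1089 to 1159 CPM in uninjected libraries. In a fit of all 18 libraries with sex as a term, 30 of 36 rose, against 3.79% of all genes, with *Spp1* lost (log2FC 1.17, adjusted *P* = 0.0555) and *Spi1*, *Adgre1*, *Aif1*, *C1qa*, *Cd14* and *Tlr2* gained. That term rests on uninjected and *Lrp2* sh2, the only groups with both sexes. Within *Lrp2* sh2 it sets replicate 1 against the others, so these counts are not a clean adjustment for sex. Leaving out 1 GFP library ended 4 of the 25 calls, those of *Cybb* (0.96) and *Fcgr3* (0.95) without replicate 1 and those of *Fcgr1* (0.95) and *Itgam* (0.96) without replicate 2.

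Among the genes of lineage and of leukocytes in general, 6 of 11 rose, led by the integrin gene *Itgax* (CD11c), which is abundant on dendritic cells and on activated microglia. *Itgax* had 33.1, 28.3 and 24.1 CPM in the nSREBP2 libraries, 1.88, 1.59 and 1.88 in the GFP libraries and 2.65, 2.51 and 2.401 in the uninjected libraries, a log2FC of 3.99 (SE 0.17, adjusted *P* = 8.54e-07) between nSREBP2 and GFP, the comparison of every fold given in the following paragraphs up to the promoters. *Mpeg1*, which encodes the pore-forming perforin-2 of macrophages, had 273, 250.5 and 226 CPM in the nSREBP2 libraries, 49.8, 55.6 and 57.5 in the GFP libraries and 64.7, 59.4 and 63.3 in the uninjected libraries, a log2FC of 2.21 (SE 0.09, adjusted *P* = 8.54e-07). For both genes the nSREBP2 libraries stood far above all others, and GFP lay below uninjected.

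*Itgb2*, the shared beta chain of leukocyte integrins, had 32.7, 34.9 and 31.2 CPM in the nSREBP2 libraries, 12.8, 12.6 and 12.9 in the GFP libraries and 15.4, 11.9 and 12.4 in the uninjected libraries, a log2FC of 1.37 (SE 0.09, adjusted *P* = 1.26e-05). *Laptm5*, a lysosomal membrane gene of leukocytes, had 109, 110.2 and 97.9 CPM in the nSREBP2 libraries, 40.4, 45.1 and 47.6 in the GFP libraries and 47.7, 42.8 and 41.6 in the uninjected libraries, a log2FC of 1.26 (SE 0.08, adjusted *P* = 1.26e-05). In both, GFP and uninjected libraries overlapped and nSREBP2 was higher. *Itgam*, the alpha chain CD11b, was scarce, with 5.77, 4.03 and 5.36 CPM in the nSREBP2 libraries, 2.56, 1.77 and 2.63 in the GFP libraries and 2.45, 1.64 and 2.51 in the uninjected libraries, a log2FC of 1.12 (SE 0.25, adjusted *P* = 0.011). *Ptprc*, the pan-leukocyte phosphatase CD45, had 69.8, 66.99 and 76.9 CPM in the nSREBP2 libraries, 35.6, 33.5 and 33.3 in the GFP libraries and 49.7, 34.7 and 40.8 in the uninjected libraries, a log2FC of 1.07 (SE 0.07, adjusted *P* = 1.72e-05). The nSREBP2 libraries were the 3 highest of these 9 for each of the 2 genes.

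The genes that define the lineage differed less. *Spi1* had 15.4, 15.9 and 15.2 CPM in the nSREBP2 libraries, 7.09, 8.4 and 9.94 in the GFP libraries and 9.59, 9.28 and 9.93 in the uninjected libraries, a log2FC of 0.87 (SE 0.14, adjusted *P* = 0.00228). *Csf1r* had 162, 161 and 158 CPM in the nSREBP2 libraries, 108, 107 and 120.5 in the GFP libraries and 152, 206 and 175 in the uninjected libraries, a log2FC of 0.52 (SE 0.07, adjusted *P* = 0.00065). For *Csf1r*, nSREBP2 lay above GFP but within the range of the uninjected libraries, and GFP lay below both. *Adgre1*, which encodes the macrophage antigen F4/80, had 67.4, 55.2 and 57.02 CPM in the nSREBP2 libraries, 28.04, 28.3 and 36.4 in the GFP libraries and 39.5, 35.4 and 31.9 in the uninjected libraries, a log2FC of 0.95 (SE 0.12, adjusted *P* = 0.000461). *Cx3cr1*, the fractalkine receptor of microglia, had 68.1, 62.7 and 63.5 CPM in the nSREBP2 libraries, 43.8, 40.4 and 46.98 in the GFP libraries and 47.2, 44.6 and 36.02 in the uninjected libraries, a log2FC of 0.57 (SE 0.08, adjusted *P* = 0.000707). These 4 genes and *Aif1* (5.61 to 7.44 CPM in nSREBP2, 2.91 to 4.24 CPM in GFP) passed the adjusted *P* but not the fold limit, and in none did nSREBP2 and GFP overlap.

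All 5 genes of Fc receptors, the receptor *Trem2* and their adaptors rose. *Trem2*, a lipid-sensing receptor of microglia, had 21.8, 18.3 and 16.9 CPM in the nSREBP2 libraries, 4.19, 3.18 and 3.31 in the GFP libraries and 2.55, 3.38 and 3.17 in the uninjected libraries, a log2FC of 2.42 (SE 0.16, adjusted *P* = 1.41e-05). Its signalling adaptor gene *Tyrobp* (DAP12) had 24.9, 20.9 and 25.9 CPM in the nSREBP2 libraries, 6.92, 7.52 and 8.43 in the GFP libraries and 9.38, 8.22 and 7.86 in the uninjected libraries, a log2FC of 1.65 (SE 0.13, adjusted *P* = 2.96e-05). *Trem2* was thus the more separated of this receptor and adaptor pair, with no nSREBP2 library near any other. *Fcer1g*, the common gamma chain of Fc receptors, had 14.8, 20.1 and 17.4 CPM in the nSREBP2 libraries, 6.15, 8.49 and 8.36 in the GFP libraries and 9.38, 6.38 and 11.3 in the uninjected libraries, a log2FC of 1.19 (SE 0.17, adjusted *P* = 0.000941). *Fcgr1*, the high-affinity IgG receptor, had 10.1, 11.7 and 11.9 CPM in the nSREBP2 libraries, 4.79, 3.54 and 6.85 in the GFP libraries and 5.1, 5.51 and 4.69 in the uninjected libraries, a log2FC of 1.15 (SE 0.23, adjusted *P* = 0.00587). *Fcgr3*, a low-affinity IgG receptor, had 30.8, 31.6 and 28.1 CPM in the nSREBP2 libraries, 13.1, 15.6 and 15.6 in the GFP libraries and 14.4, 13.8 and 11.1 in the uninjected libraries, a log2FC of 1.04 (SE 0.10, adjusted *P* = 0.000136). In all 3 the nSREBP2 libraries were above the rest, while GFP and uninjected overlapped.

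The 3 chains of C1q, which starts the classical complement cascade, moved alike. *C1qb* had 89.7, 86 and 84.4 CPM in the nSREBP2 libraries, 31.97, 34.4 and 41.04 in the GFP libraries and 33.9, 35.2 and 36.1 in the uninjected libraries, a log2FC of 1.28 (SE 0.09, adjusted *P* = 1.92e-05). *C1qc* had 62.4, 62.2 and 63.2 CPM in the nSREBP2 libraries, 29.3, 28.9 and 32.5 in the GFP libraries and 29.3, 33.1 and 24.7 in the uninjected libraries, a log2FC of 1.05 (SE 0.07, adjusted *P* = 1.58e-05). *C1qa* had 70.1, 65.2 and 64.4 CPM in the nSREBP2 libraries, 26.6, 36.4 and 37.3 in the GFP libraries and 28.4, 32 and 29.7 in the uninjected libraries, a log2FC of 0.998 (SE 0.12, adjusted *P* = 0.000358), and so missed the fold limit narrowly. Each chain was higher in every nSREBP2 library than in any GFP or uninjected library.

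All 4 MHC class II genes rose. *H2-Eb1*, a beta chain, had 57.9, 55.7 and 51.3 CPM in the nSREBP2 libraries, 9.74, 10.7 and 12.7 in the GFP libraries and 14.9, 16.8 and 22.1 in the uninjected libraries, a log2FC of 2.31 (SE 0.11, adjusted *P* = 1.78e-06). The alpha chain gene *H2-Aa* had 62.8, 69.3 and 60.2 CPM in the nSREBP2 libraries, 12.7, 15.9 and 14.1 in the GFP libraries and 22.3, 18.7 and 26.7 in the uninjected libraries, a log2FC of 2.18 (SE 0.10, adjusted *P* = 1.57e-06). In both, GFP lay below uninjected and nSREBP2 well above it. *H2-Ab1*, the partner beta chain, had 50.8, 53.2 and 57.2 CPM in the nSREBP2 libraries, 12.1, 13.4 and 17.02 in the GFP libraries and 20.4, 20.1 and 25.8 in the uninjected libraries, a log2FC of 1.92 (SE 0.12, adjusted *P* = 1.14e-05). *Cd74*, the invariant chain that guides class II molecules to the endosome, had 129, 137 and 124 CPM in the nSREBP2 libraries, 26.7, 37.9 and 38.4 in the GFP libraries and 46.5, 52.8 and 61.7 in the uninjected libraries, a log2FC of 1.93 (SE 0.13, adjusted *P* = 1.26e-05). The order nSREBP2, uninjected, GFP held for all 4 genes without overlap. Of 5 partner genes tested (peptide loading and the activator *Ciita*), 1 rose, *H2-DMa*, with a log2FC of 1.28 (SE 0.22, adjusted *P* = 0.00298).

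Of the genes of monocyte entry and scavenging, *Ccr2*, the chemokine receptor of blood monocytes, had 25.5, 27.8 and 32.4 CPM in the nSREBP2 libraries, 6.92, 6.81 and 8.06 in the GFP libraries and 10.5, 9.96 and 10.3 in the uninjected libraries, a log2FC of 1.98 (SE 0.13, adjusted *P* = 1.26e-05). *Ccl2*, which encodes a ligand of this receptor, had 8.18, 7.27 and 8.44 CPM in the nSREBP2 libraries, 3.25, 3.62 and 3.69 in the GFP libraries and 3.57, 3.29 and 5.13 in the uninjected libraries, a log2FC of 1.18 (SE 0.18, adjusted *P* = 0.00133). Of these 9 libraries, the 3 of nSREBP2 were the highest for both *Ccr2* and *Ccl2*. *Mrc1*, the mannose receptor of resident macrophages, had 110.1, 99.1 and 109.8 CPM in the nSREBP2 libraries, 100.5, 108 and 123 in the GFP libraries and 117, 120.3 and 98.6 in the uninjected libraries, a log2FC of −0.05 (SE 0.09, adjusted *P* = 0.756). *Cd163*, the haemoglobin scavenger receptor, had 15.7 to 18.3 CPM in nSREBP2 and 16 to 23.1 CPM in GFP libraries, with a log2FC of −0.20 (SE 0.14, adjusted *P* = 0.365). The groups overlapped for both scavenger receptors.

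Among innate effectors, *Lyz2*, the lysozyme of macrophages and neutrophils, had 463, 339 and 338 CPM in the nSREBP2 libraries, 58.5, 65.3 and 63.7 in the GFP libraries and 84.5, 65.5 and 72.5 in the uninjected libraries, a log2FC of 2.61 (SE 0.12, adjusted *P* = 1.83e-06). *Cybb*, the catalytic subunit of the phagocyte NADPH oxidase, had 62.7, 60.5 and 61.1 CPM in the nSREBP2 libraries, 25.6, 30.3 and 32.5 in the GFP libraries and 44.2, 32.3 and 36.02 in the uninjected libraries, a log2FC of 1.06 (SE 0.09, adjusted *P* = 5.64e-05). Replicate 1 of nSREBP2 was the highest library for *Lyz2*, whereas the nSREBP2 libraries were close together for *Cybb*. *Tlr2*, a receptor for bacterial lipoproteins, had 26.6, 26.97 and 28.8 CPM in the nSREBP2 libraries, 11.97, 13.5 and 16.3 in the GFP libraries and 17.9, 13.2 and 18.1 in the uninjected libraries, a log2FC of 0.98 (SE 0.12, adjusted *P* = 0.000457). *Cd14*, a co-receptor for lipopolysaccharide, had 16.2 to 21.8 CPM in nSREBP2, 8.12 to 13.6 CPM in GFP and 15.6 to 18.9 CPM in uninjected libraries, a log2FC of 0.82 (SE 0.19, adjusted *P* = 0.0133). *Tlr2* and *Cd14* were above GFP without overlap and missed the fold limit, and *Cd14* overlapped uninjected.

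Of the genes of phagolysosomes and secreted proteins, 4 of 5 rose. *Lgals3*, which encodes galectin-3, had 65.3, 58.4 and 80.2 CPM in the nSREBP2 libraries, 8.55, 8.22 and 9.19 in the GFP libraries and 9.28, 8.798 and 11.1 in the uninjected libraries, a log2FC of 2.98 (SE 0.13, adjusted *P* = 1.02e-06). *Ctss*, a cysteine protease that trims the invariant chain, had 151, 133 and 138 CPM in the nSREBP2 libraries, 24.8, 29.4 and 31.2 in the GFP libraries and 28.5, 23.8 and 33.5 in the uninjected libraries, a log2FC of 2.31 (SE 0.10, adjusted *P* = 8.54e-07). Neither gene had a GFP or uninjected library near the nSREBP2 level. *Cd68*, a lysosomal membrane protein of macrophages, had 51.3, 48.8 and 39.3 CPM in the nSREBP2 libraries, 13.3, 15.3 and 15.7 in the GFP libraries and 17.8, 11.9 and 19.1 in the uninjected libraries, a log2FC of 1.66 (SE 0.12, adjusted *P* = 1.78e-05). *Spp1*, the secreted osteopontin, had 234, 164 and 156 CPM in the nSREBP2 libraries, 77.3, 93.5 and 89.2 in the GFP libraries and 83.7, 70.5 and 135 in the uninjected libraries, a log2FC of 1.10 (SE 0.14, adjusted *P* = 0.000634). *Gpnmb* had 2055, 1753 and 1474 CPM in the nSREBP2 libraries, 1242, 1254 and 1139 in the GFP libraries and 687, 895 and 1221 in the uninjected libraries, a log2FC of 0.55 (SE 0.11, adjusted *P* = 0.00745). The nSREBP2 libraries were above GFP in all 3 genes, and for *Spp1* replicate 1 stood apart from the others of its group. Without that replicate *Spp1* had a log2FC of 0.90 and was no longer called, as in the fit with sex as a term.

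**Figure D2:**
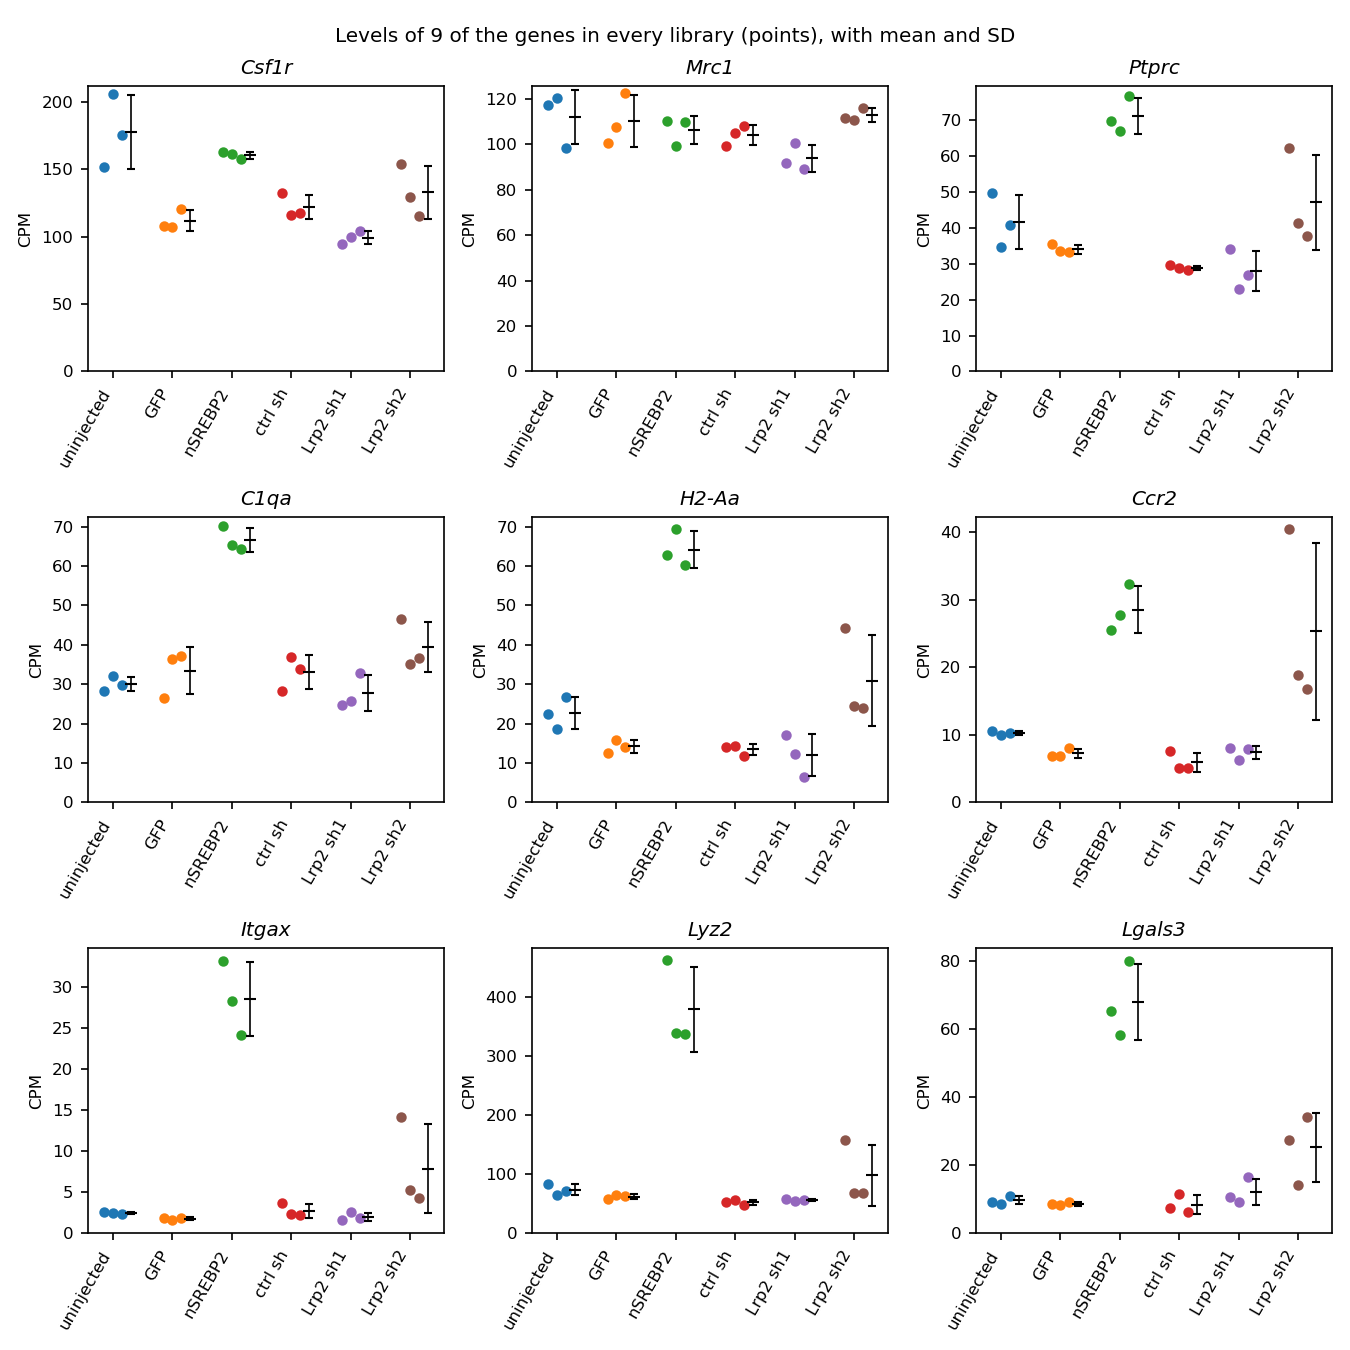
CPM (y axis, from 0) of 9 of the genes in every library of the 6 groups (x axis). Points are libraries, and bars give the mean and SD of 3 libraries. *Itgax*, *Lyz2* and *Lgals3* are separated most in nSREBP2, while *Mrc1* lies between 89.3 and 122.6 CPM in all 18 libraries.

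Promoters are shown for 5 genes that rose in nSREBP2 versus GFP, to give the letters next to the start sites of *Itgax*, *Trem2*, *Ctss* and 2 class II genes. RefSeq windows on GRCm38.p6, from 250 bases before to 50 after the start, were matched by symbol for 26 of the 36 genes, in 29 windows. In capitals are matches on either strand to GAGGAA (the core bound by PU.1), CTGATTGG (the Y box of class II genes) and TGANTCA (AP-1). The windows are chr7:128129300-128129599 (*Itgax*, plus strand), chr17:48346151-48346450 (*Trem2*, plus), chr3:95526536-95526835 (*Ctss*, plus), chr17:34287774-34288073 (*H2-Aa*, minus) and chr17:34305617-34305916 (*H2-Eb1*, plus).
Itgax: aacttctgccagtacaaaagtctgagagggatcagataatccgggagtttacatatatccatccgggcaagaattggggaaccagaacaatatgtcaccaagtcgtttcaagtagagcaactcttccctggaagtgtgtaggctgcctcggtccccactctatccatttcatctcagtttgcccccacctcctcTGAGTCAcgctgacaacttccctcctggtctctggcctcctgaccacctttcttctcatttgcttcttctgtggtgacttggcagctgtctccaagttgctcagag
Trem2: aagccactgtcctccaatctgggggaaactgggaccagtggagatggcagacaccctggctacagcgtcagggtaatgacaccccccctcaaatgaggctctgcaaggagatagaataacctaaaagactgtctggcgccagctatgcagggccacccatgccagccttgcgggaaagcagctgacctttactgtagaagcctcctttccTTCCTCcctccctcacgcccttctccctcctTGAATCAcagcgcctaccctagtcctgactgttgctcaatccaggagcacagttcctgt
Ctss: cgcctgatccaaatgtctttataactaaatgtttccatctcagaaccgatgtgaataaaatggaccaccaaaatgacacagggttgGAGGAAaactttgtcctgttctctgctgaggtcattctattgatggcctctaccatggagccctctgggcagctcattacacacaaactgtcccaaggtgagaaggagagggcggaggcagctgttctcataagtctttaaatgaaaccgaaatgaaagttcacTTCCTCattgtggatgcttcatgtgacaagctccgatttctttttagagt
H2-Aa: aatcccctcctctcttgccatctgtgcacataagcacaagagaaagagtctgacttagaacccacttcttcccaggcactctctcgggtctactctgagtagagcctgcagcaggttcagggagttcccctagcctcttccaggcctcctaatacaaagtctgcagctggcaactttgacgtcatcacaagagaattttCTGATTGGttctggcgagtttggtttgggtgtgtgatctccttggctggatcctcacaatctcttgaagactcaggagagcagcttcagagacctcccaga
H2-Eb1: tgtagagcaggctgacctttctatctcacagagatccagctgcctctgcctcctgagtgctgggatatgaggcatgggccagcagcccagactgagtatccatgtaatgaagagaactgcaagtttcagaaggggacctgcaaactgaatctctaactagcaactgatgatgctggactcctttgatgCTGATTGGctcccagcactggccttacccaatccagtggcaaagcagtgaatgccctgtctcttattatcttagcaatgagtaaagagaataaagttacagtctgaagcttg

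*H2-Aa* and *H2-Eb1* each held 1 Y box, *Itgax* and *Trem2* each 1 AP-1 match, and *Ctss* 2 matches and *Trem2* 1 match to the PU.1 core. The 12 motifs searched were chosen after the values were seen. GAGGAA was in 15 of the 29 windows (51.7%) and in 28.3% of all 32851 windows, TGANTCA in 5 (17.2% against 7.81%) and CTGATTGG in 3 (10.3% against 4.1%). The interferon response motif was in 4 windows (13.8% against 3.44%), the C/EBP letters TTNNGNAAT in 4 (13.8% against 11.5%), TCATGTG in 3 (10.3% against 3.77%) and GAGGAAGT in 3 (10.3% against 3.2%). TCACNCCAC, a sterol regulatory element to which SREBP2 can bind, was in 1 window (3.45% against 1.24%), that of *Spp1*, and CTAGCAAC in 1 (3.45% against 1.32%). CACGTG (7.15% of all), AGAGGAAGT (1% of all) and the NF-kB motif (0.411% of all) were in none. These matches describe letters and were not tested.

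Counts can be set against *Csf1r* in the same library, a description chosen after the values were seen. *Itgax* had 15.3 to 20.4 counts per 100 *Csf1r* counts in nSREBP2 and 1.48 to 1.75 in GFP libraries. *Lyz2* had 210.2 to 285 in nSREBP2 and 52.8 to 60.8 in GFP libraries. *Mrc1* went the other way, with 61.5 to 69.7 in nSREBP2 and 93.4 to 101.7 in GFP libraries, though the uninjected libraries (56.3 to 77.5) overlapped nSREBP2. 

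**Figure D3:**
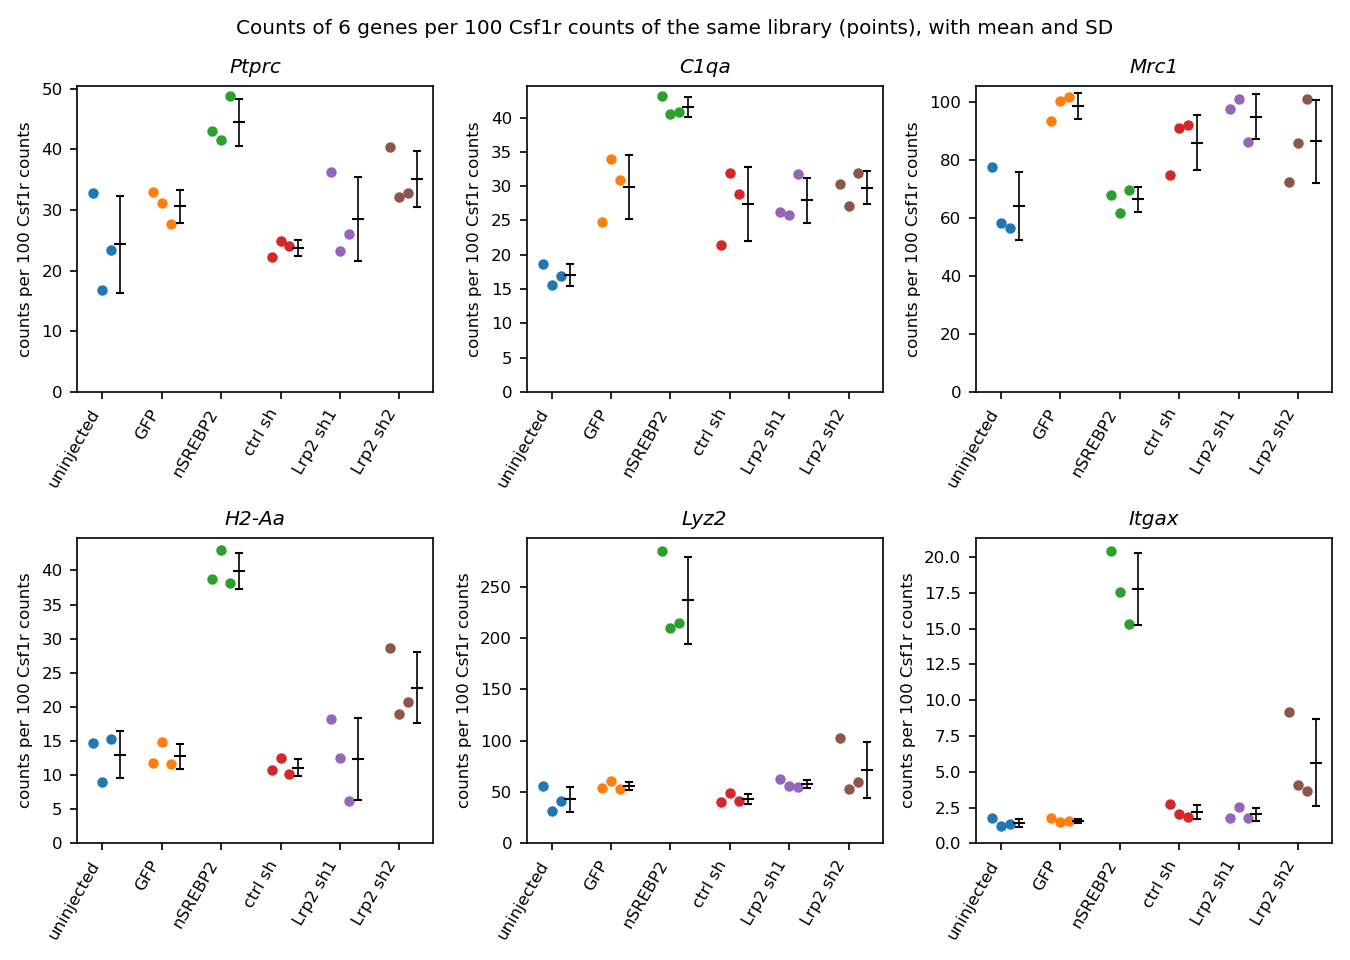
Counts of 6 genes per 100 *Csf1r* counts of the same library (y axis, from 0) in the 6 groups (x axis). Points are libraries, and bars give the mean and SD of 3 libraries. *Itgax* and *Lyz2* stand apart in nSREBP2 (15.3 to 20.4 and 210.2 to 285), whereas *Mrc1* is lower there than in GFP.

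Further myeloid lists were counted in nSREBP2 versus GFP, where 4.71% of all genes rose. Of 16 other leukocyte genes 9 rose, among them *Cd48* (log2FC 1.63), *Cytip* (1.45) and *Cd53* (1.45). Of 9 homeostatic microglia genes tested 1 rose, *Selplg* (1.35). *Tmem119* of this list, picked after its values were seen, had 69, 68.04 and 62.1 CPM in nSREBP2 and 53.5, 49.2 and 62.2 CPM in GFP libraries, with a log2FC of 0.28 (SE 0.09, adjusted *P* = 0.0616). For *Tmem119* the groups overlapped. Of 11 genes of lipid-laden and damage-associated microglia tested 3 rose, which were *Itgax* and *Trem2* again and *Clec7a*, the beta-glucan receptor (2.99). Of 9 genes of resident perivascular macrophages tested 3 rose, *Ms4a6c* (1.29), *Lyve1* (1.29) and *Ms4a7* (1.11). *Rac2* (1.48), *Ncf4* (1.18) and *Ncf1* (1.05) of the 5 NADPH oxidase genes rose, as did *Tlr13* (1.27), *Cd180* (1.19) and *Tlr1* (1.19) among 4 of 12 Toll-like receptor genes. Of 20 cytokine, chemokine and activation genes tested 7 rose and 1 fell, with *Ccl5* (3.05), *Arg1* (2.32) and *Il1b* (1.87) the largest. *Ccl5*, with 30, 17 and 31 counts in nSREBP2 and 4, 4 and 2 in GFP libraries, passed the filter only through nSREBP2. For *Arg1* replicate 3 stood apart, with 35, 34 and 183 counts in nSREBP2 and 25, 15 and 15 in GFP libraries. *Ccl12* was lower, with 18, 10 and 11 counts in nSREBP2 and 34, 50 and 44 in GFP libraries. Among growth factor genes the receptors *Csf3r* (2.18) and *Csf2rb* (1.44) rose, whereas the *Csf1r* ligand gene *Csf1*, also picked after its values were seen, had 72.2, 73.5 and 77.7 CPM in nSREBP2 and 71.5, 75.1 and 78.8 CPM in GFP libraries. Of 10 myeloid transcription factor genes 1 rose, *Batf3* (1.13).

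Markers of other cells moved in the same libraries, and their part in the result was not tested. All 3 neutrophil genes tested of 11 rose (*Cxcr2* 3.30, *S100a9* 1.48, *S100a8* 1.28). The 11 summed to 14.6 to 17.1 CPM in nSREBP2 and 5.56 to 8.73 CPM in GFP libraries. *Cxcr2* had 28, 45 and 39 counts in nSREBP2 and 6, 6 and 0 in GFP libraries. It passed the filter on low counts only through nSREBP2, so its rise is no separate evidence. *Camp*, left out by the filter, went the other way, with 6, 4 and 5 against 13, 19 and 8 counts. Of 7 dendritic cell genes 4 rose (among them *Ccr7* 3.41, *Flt3* 2.69 and *Cd209a* 2.29). In GFP libraries *Ccr7* had 8, 7 and 4 counts, *Flt3* 10, 13 and 5, and *Cd209a* 4, 10 and 4. *Ccr7* passed the filter on low counts only through nSREBP2. *Clec9a* was lower, with 46, 48 and 52 counts in nSREBP2 and 73, 70 and 92 in GFP libraries. The sum of the 7 genes, 51.2 to 59.8 against 52.1 to 63.4 CPM, came mostly from *Zbtb46*, which was lower (log2FC −0.44). Of 3 T cell genes tested of 9, 2 rose (*Cd28* 2.05, *Cd4* 1.42). *Cd28*, with 26, 19 and 20 counts in nSREBP2 and 4, 5 and 8 in GFP libraries, passed the filter only through nSREBP2. *Cd3e* was at 0.525 to 1.09 CPM in nSREBP2 and 0.0753 to 0.354 CPM in GFP libraries, where 3 counts equal 0.226 to 0.265 CPM. Fibroblast genes summed to 71240 to 85270 CPM in nSREBP2 and 34500 to 43770 CPM in GFP, rod genes to 247.5 to 347 and 38.4 to 316 CPM, and endothelial genes to 1458 to 1548 and 1934 to 2454 CPM.

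**Figure D4:**
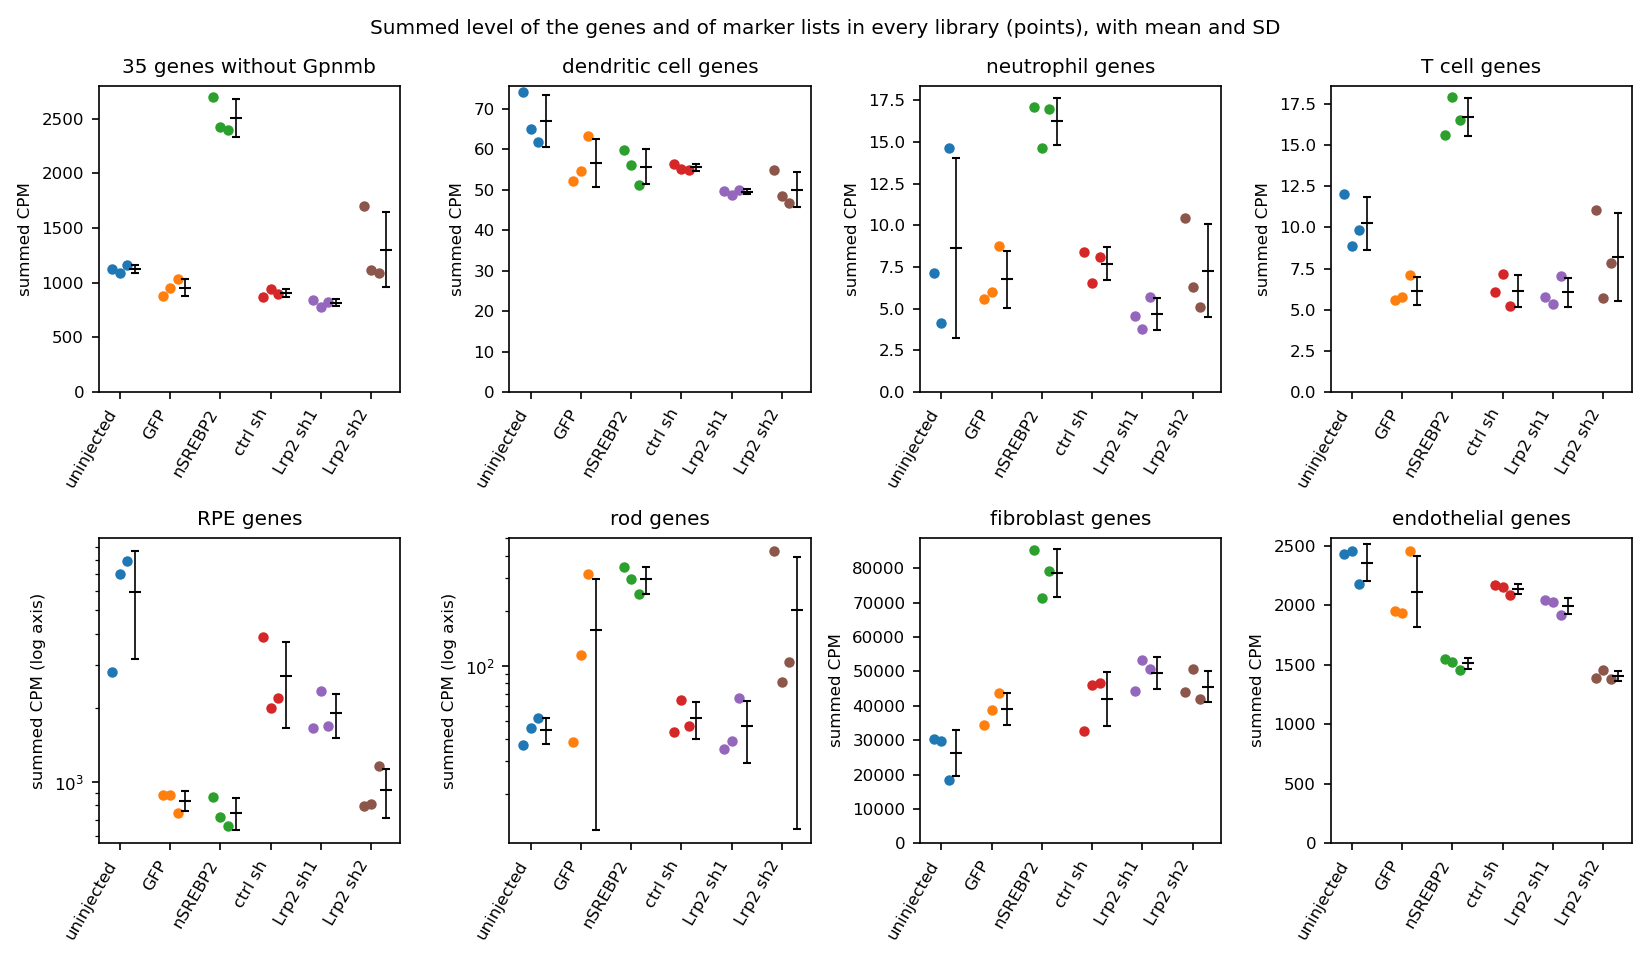
Summed CPM (y axis) of 35 of the genes without *Gpnmb* and of 7 marker lists in every library of the 6 groups (x axis); the RPE and rod panels have a log axis, the others start at 0. Points are libraries, and bars give the mean and SD of 3 libraries. In nSREBP2 the 35 genes (2394 to 2704 CPM), neutrophil, T cell and fibroblast genes are all high, and *Lrp2* sh2 replicate 1 is highest for rod genes.

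The 2 hairpins gave different pictures against the ctrl sh libraries that they share. In *Lrp2* sh1 versus ctrl sh, edgeR and DESeq2 called 0 of the 36 genes, against 0.994% of the 17801 genes tested, and 8 had an unadjusted *P* under 0.05. With the adjusted *P* alone 1 was lower, *Csf1r* (2.28% of all genes were lower). In *Lrp2* sh2 versus ctrl sh, 9 of 36 rose and none fell, against 2.98% of 18089 genes that rose, and with the adjusted *P* alone 15 were higher, against 8.59%. All *Lrp2* sh2 libraries lay above all ctrl sh libraries for 21 of 36, where 17.4% of all genes did so. The median log2FC of the 36 was −0.19 with *Lrp2* sh1 and 0.57 with *Lrp2* sh2. Replicate 1 of *Lrp2* sh2 was the highest of its group for most of the genes and also for rod genes (422 CPM in sum, against 81.7 and 106 CPM). Of 11 rod genes 9 rose with *Lrp2* sh2, against 2.98% of all genes. RPE genes summed to 794.6 to 1162 CPM with *Lrp2* sh2 and 1997 to 3870 CPM with ctrl sh. The part of both lists in the result was not tested. Without replicate 1 of *Lrp2* sh2, 4 of 36 were called, *Ccl2*, *Ccr2*, *Lgals3* and *Tlr2*. The *Lrp2* sh2 libraries left then all expressed Y-linked genes and no ctrl sh library did, so sex and hairpin cannot be told apart in that fit. Without ctrl sh replicate 2 or 3 there were 6 calls. In the fit with sex as a term 11 were called, against 2.86% of all genes, the 9 together with *Lyz2* (1.24) and *Mpeg1* (1.02). Within *Lrp2* sh2 that term cannot be told apart from what sets replicate 1 apart.

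The chemokine pair changed most. *Ccl2* had 1.87, 2.65 and 1.602 CPM with ctrl sh, 2.45, 4.05 and 2.21 with *Lrp2* sh1 and 16.7, 8.07 and 8.91 with *Lrp2* sh2, a log2FC of 2.46 (SE 0.32, adjusted *P* = 0.00101) for sh2. *Ccr2* had 7.55, 5.15 and 5.14 CPM with ctrl sh, 8.06, 6.28 and 7.89 with *Lrp2* sh1 and 40.5, 18.8 and 16.8 with *Lrp2* sh2, a log2FC of 2.10 (SE 0.33, adjusted *P* = 0.00271) for sh2. All *Lrp2* sh2 libraries were above all ctrl sh and *Lrp2* sh1 libraries for both genes. *Tlr2* had 12.6, 10.7 and 11.2 CPM with ctrl sh, 15.1, 13.7 and 14.7 with *Lrp2* sh1 and 32.7, 24.1 and 24.9 with *Lrp2* sh2, a log2FC of 1.25 (SE 0.14, adjusted *P* = 0.000469). *Lgals3* had 7.41, 11.6 and 6.41 CPM with ctrl sh, 10.8, 9.33 and 16.5 with *Lrp2* sh1 and 27.4, 14.3 and 34.3 with *Lrp2* sh2, a log2FC of 1.59 (SE 0.31, adjusted *P* = 0.00767), and here *Lrp2* sh1 replicate 3 exceeded *Lrp2* sh2 replicate 2. *Tlr2* was the only one of the 9 that was not called in nSREBP2 versus GFP.

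The class II genes rose together with *Lrp2* sh2. *H2-Eb1* had 12.7, 11.01 and 9.02 CPM with ctrl sh, 12.6, 8.84 and 6.28 with *Lrp2* sh1 and 41.02, 20.9 and 22.6 with *Lrp2* sh2, a log2FC of 1.38 (SE 0.25, adjusted *P* = 0.00515). *H2-Aa* had 14.2, 14.4 and 11.9 CPM with ctrl sh, 17.1, 12.4 and 6.45 with *Lrp2* sh1 and 44.2, 24.5 and 23.9 with *Lrp2* sh2, a log2FC of 1.20 (SE 0.23, adjusted *P* = 0.00633). In both, replicate 1 was far above the other *Lrp2* sh2 libraries. *Cd74* had 36.1, 28.6 and 23.7 CPM with ctrl sh, 35.4, 28.4 and 21.1 with *Lrp2* sh1 and 108, 52.95 and 50.04 with *Lrp2* sh2, a log2FC of 1.26 (SE 0.28, adjusted *P* = 0.0133). *H2-Ab1* had 14.5, 15.6 and 10.03 CPM with ctrl sh, 14.6, 10.6 and 7.97 with *Lrp2* sh1 and 48.6, 21.2 and 20.7 with *Lrp2* sh2, a log2FC of 1.18 (SE 0.32, adjusted *P* = 0.0319). *Itgax* had 3.67, 2.34 and 2.19 CPM with ctrl sh, 1.66, 2.56 and 1.87 with *Lrp2* sh1 and 14.1, 5.29 and 4.25 with *Lrp2* sh2, a log2FC of 1.53 (SE 0.44, adjusted *P* = 0.0415). None of these 5 was called without *Lrp2* sh2 replicate 1, with log2FCs just under the limit of 1 (*H2-Eb1*), 0.84 (*H2-Aa*), 0.81 (*Cd74*), 0.65 (*H2-Ab1*) and 0.80 (*Itgax*). In that fit sex and hairpin cannot be told apart. The *Lrp2* sh2 and ctrl sh libraries did not overlap for these 5, but 17.4% of all genes were likewise wholly above ctrl sh. The calls of *Cd74*, *H2-Ab1* and *Itgax* were also lost without ctrl sh replicate 2 or 3, that of *Itgax* without *Lrp2* sh2 replicate 2, and that of *H2-Ab1* without ctrl sh replicate 1 and in DESeq2 (adjusted *P* = 0.0668).

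The other genes of the lineage and leukocyte group were not called with either hairpin in the fits of 6 libraries. *Ptprc* had 29.6, 28.8 and 28.3 CPM with ctrl sh, 34.1, 23.1 and 26.98 with *Lrp2* sh1 and 62.2, 41.4 and 37.8 with *Lrp2* sh2, a log2FC of 0.72 (SE 0.16, adjusted *P* = 0.0154) for sh2. *Spi1* had 6.91, 8.35 and 8.52 CPM with ctrl sh, 6.96, 6.19 and 6.87 with *Lrp2* sh1 and 14.7, 10.2 and 9.66 with *Lrp2* sh2, a log2FC of 0.56 (SE 0.18, adjusted *P* = 0.068). *Csf1r* had 132, 116 and 118 CPM with ctrl sh, 94.1, 99.3 and 104 with *Lrp2* sh1 and 154, 129 and 115 with *Lrp2* sh2, a log2FC of 0.13 (SE 0.11, adjusted *P* = 0.434) for sh2 and a log2FC of −0.30 (SE 0.07, adjusted *P* = 0.0377) for sh1. *Csf1r* was lower in every *Lrp2* sh1 library than in any ctrl sh library, as were 12% of all genes. *Adgre1* had 27.9, 32.5 and 26.98 CPM with ctrl sh, 25.9, 31.2 and 28.5 with *Lrp2* sh1 and 41.3, 38.2 and 29.6 with *Lrp2* sh2, and the *Lrp2* sh2 and ctrl sh libraries overlapped. *Cx3cr1* had 38.8, 45.7 and 36 CPM with ctrl sh, 39.8, 32.5 and 42.1 with *Lrp2* sh1 and 63.6, 60.6 and 52.4 with *Lrp2* sh2. *Mpeg1* had 52.5, 56.4 and 49.7 CPM with ctrl sh, 50.4, 43.7 and 52.4 with *Lrp2* sh1 and 128, 80.6 and 65.7 with *Lrp2* sh2. *Laptm5* had 45.2, 47.1 and 45.9 CPM with ctrl sh, 40.9, 37.9 and 40.8 with *Lrp2* sh1 and 71.4, 56.4 and 51.5 with *Lrp2* sh2. For *Cx3cr1*, *Mpeg1* and *Laptm5* all *Lrp2* sh2 libraries were above ctrl sh. *Itgam* had 2.73, 2.81 and 2.28 CPM with ctrl sh, 2.13, 2.15 and 1.87 with *Lrp2* sh1 and 5.66, 3.78 and 3.41 with *Lrp2* sh2. *Itgb2* had 11.2, 9.83 and 8.09 CPM with ctrl sh, 7.83, 10.4 and 10.2 with *Lrp2* sh1 and 22.5, 10.3 and 13.1 with *Lrp2* sh2. *Itgb2* overlapped, with *Lrp2* sh2 replicate 1 apart.

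Among receptors and C1q, *Trem2* had 2.81, 4.29 and 3.46 CPM with ctrl sh, 2.69, 2.06 and 3.99 with *Lrp2* sh1 and 6.77, 3.87 and 4.91 with *Lrp2* sh2. *Tyrobp* had 7.34, 7.42 and 7.67 CPM with ctrl sh, 7.83, 4.96 and 6.702 with *Lrp2* sh1 and 13.6, 7.57 and 8.83 with *Lrp2* sh2. *Fcer1g* had 6.83, 9.13 and 11.8 CPM with ctrl sh, 7.59, 6.44 and 6.62 with *Lrp2* sh1 and 12.03, 7.901 and 8.91 with *Lrp2* sh2. In these 3 the *Lrp2* sh2 and ctrl sh libraries overlapped. *Fcgr1* had 3.96, 4.92 and 5.48 CPM with ctrl sh, 4.74, 3.96 and 5.68 with *Lrp2* sh1 and 9.48, 7.397 and 5.83 with *Lrp2* sh2. *Fcgr3* had 11.1, 15.1 and 14.8 CPM with ctrl sh, 14.2, 13.3 and 12.9 with *Lrp2* sh1 and 20.6, 11.4 and 15.6 with *Lrp2* sh2. *C1qa* had 28.3, 36.9 and 33.98 CPM with ctrl sh, 24.7, 25.7 and 32.9 with *Lrp2* sh1 and 46.7, 35.05 and 36.7 with *Lrp2* sh2. Only *Fcgr1* of these was separated from ctrl sh with *Lrp2* sh2. *C1qb* had 30.7, 40.04 and 41.9 CPM with ctrl sh, 31.3, 23.9 and 33.9 with *Lrp2* sh1 and 56.4, 38.1 and 43.1 with *Lrp2* sh2. *C1qc* had 28.5, 33.2 and 35.4 CPM with ctrl sh, 25.4, 27 and 29.6 with *Lrp2* sh1 and 42.7, 32.02 and 34.6 with *Lrp2* sh2. The sh2 and ctrl sh libraries overlapped for both chains.

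*Lyz2*, which rose with nSREBP2, had 53.3, 56.4 and 48.1 CPM with ctrl sh, 58.9, 55.7 and 57.01 with *Lrp2* sh1 and 158, 68.2 and 68.5 with *Lrp2* sh2, a log2FC of 0.91 (SE 0.29, adjusted *P* = 0.0556) for sh2. *Cybb* had 25.5, 27.1 and 23.8 CPM with ctrl sh, 27.6, 21.1 and 27.2 with *Lrp2* sh1 and 47.7, 33.1 and 29.5 with *Lrp2* sh2. Both were higher in every *Lrp2* sh2 library than in ctrl sh, and for *Lyz2* replicate 1 was far above the others of its group. *Ctss* had 24.2, 30.6 and 29.3 CPM with ctrl sh, 28.4, 21.7 and 21.97 with *Lrp2* sh1 and 60.5, 34.4 and 37.1 with *Lrp2* sh2. *Cd68* had 15.3, 15.5 and 16.3 CPM with ctrl sh, 16.3, 14.9 and 17.1 with *Lrp2* sh1 and 21.6, 14.04 and 12.3 with *Lrp2* sh2. *Mrc1* had 99.2, 105 and 108 CPM with ctrl sh, 91.8, 100.4 and 89.3 with *Lrp2* sh1 and 112, 111 and 116 with *Lrp2* sh2. *Ctss* and *Mrc1* did not overlap between sh2 and ctrl sh, but neither was called, and *Cd68* overlapped. *Spp1* had 49.6, 68.5 and 77.8 CPM with ctrl sh, 60.5, 46.2 and 54.1 with *Lrp2* sh1 and 114, 62.4 and 54.7 with *Lrp2* sh2. *Gpnmb* had 986, 907 and 892 CPM with ctrl sh, 1069, 952 and 1195 with *Lrp2* sh1 and 1038, 869 and 828 with *Lrp2* sh2. Both genes overlapped between sh2 and ctrl sh. *Aif1*, *Cd14* and *Cd163* had 2.09 to 4.78 (*Aif1*), 7.93 to 16.7 (*Cd14*) and 9.80 to 21.6 CPM (*Cd163*) over the 9 hairpin libraries and were not called.

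**Figure D5:**
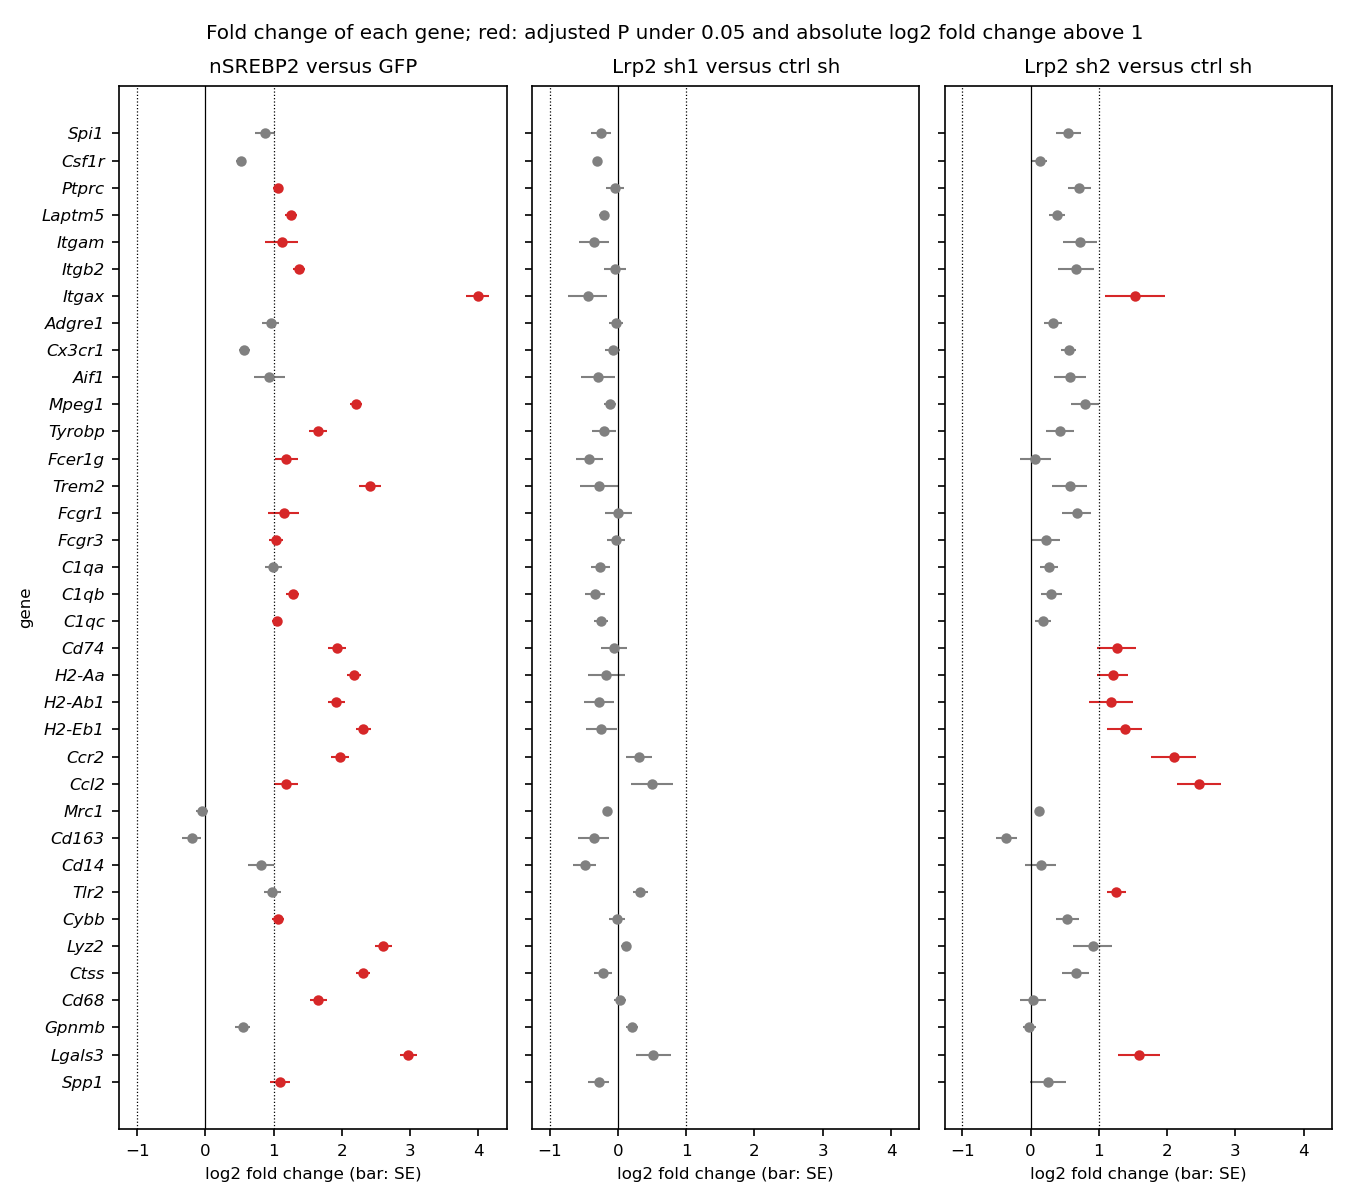
Log2 fold change (x axis, with SE) of each of the 36 genes (y axis, ordered by role) in the 3 comparisons of the study. Red points passed both limits: 25 in nSREBP2 versus GFP, 0 in *Lrp2* sh1 versus ctrl sh and 9 in *Lrp2* sh2 versus ctrl sh.

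The hairpins were compared with each other directly, because a gene called with 1 hairpin and not with the other is not thereby different. In *Lrp2* sh2 versus *Lrp2* sh1, 9 of 36 were higher and none lower, against 3.32% of 17975 genes that were higher. They were the 4 class II genes, *Ccr2*, *Ccl2*, *Itgax*, *Itgam* and *Lgals3*, of which *Lgals3* overlapped between the groups. With the adjusted *P* alone 24 were higher, against 10.2% of all genes, and with sex as a term 14 rose past both limits, against 3.14%. Without *Lrp2* sh2 replicate 1, 5 remained (*Ccl2*, *Ccr2*, *H2-Aa*, *H2-Eb1* and *Itgax*). The *Lrp2* sh2 libraries left then all expressed Y-linked genes and no *Lrp2* sh1 library did, so sex and hairpin cannot be told apart there. *Lgals3* was also lost in DESeq2 (adjusted *P* = 0.0852) and without *Lrp2* sh2 replicate 3 or *Lrp2* sh1 replicate 1 or 2, *Itgax* without *Lrp2* sh1 replicate 1, and *H2-Ab1* without *Lrp2* sh1 replicate 3.

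The nSREBP2 and hairpin effects were compared within 1 fit of all 18 libraries, a contrast added after the data were seen. Sex differs between nSREBP2 and GFP libraries, in part between *Lrp2* sh2 and ctrl sh, and not between *Lrp2* sh1 and ctrl sh. The differences below therefore include any effect of sex. The sex term rests on uninjected and *Lrp2* sh2, so it is not a clean adjustment here either. The effect of nSREBP2 exceeded that of *Lrp2* sh2 past both limits for 9 of 36 genes, against 1.25% of 19744 genes, and fell below it for none. These were *Itgax*, with a difference of 2.47 (SE 0.50, adjusted *P* = 0.00622), *Trem2* (1.85), *Lyz2* (1.70), *Ctss* (1.65), *Cd68* (1.63), *Mpeg1* (1.41), *Lgals3* (1.39), *Tyrobp* (1.22) and *Fcer1g* (1.12). With sex as a term 10 genes passed, against 1.35% of all: *Fcgr3*, *C1qb* and *C1qc* were gained, and *Lgals3* (1.38, adjusted *P* = 0.0575) and *Fcer1g* (1.13, adjusted *P* = 0.0591) were lost. Without the sex term, for *Ccr2* the difference was −0.12 (SE 0.36, adjusted *P* = 0.908) and for *Tlr2* −0.27 (SE 0.20, adjusted *P* = 0.511). *Ccl2* was on the other side, with −1.28 (SE 0.41, adjusted *P* = 0.0758), which did not pass. Against *Lrp2* sh1 the excess passed for 28 of 36 genes, against 2.53% of all, and for 28 with sex as a term, against 2.58%, where *Adgre1* and *Csf1r* took the place of *Aif1* and *Spp1*.

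Injection of the control vectors was followed by no call among the 36 genes in the fits of 6 libraries. All GFP libraries lay below all uninjected libraries for 10 of 36, where 11.7% of all genes did so. All ctrl sh libraries did for 16 of 36, where 14.6% of all genes did so. None of the 36 lay wholly above uninjected in either. In GFP versus uninjected edgeR and DESeq2 called 0 (1.41% of 17837 genes), with 11 at an unadjusted *P* under 0.05, and in ctrl sh versus uninjected 0 (2.39% of 17822), with 16. With the adjusted *P* alone, *Csf1r* was lower in GFP, a log2FC of −0.68 (SE 0.11, adjusted *P* = 0.0201), against 1.82% of all genes, and 9 genes were lower in ctrl sh (*Ptprc*, *Csf1r*, *Ccr2*, *Lyz2*, *Cybb* and the 4 class II genes), where 3.37% of all genes were lower. For *Csf1r* the change in ctrl sh was a log2FC of −0.55 (SE 0.12, adjusted *P* = 0.0303). In a fit with sex as a term, 3 genes were called lower in ctrl sh than in uninjected, *Ccr2*, *Ccl2* and *Cd74*, against 1.98% of all genes. In ctrl sh versus GFP both tools called 0 (0.899% of 18018), with 6 at an unadjusted *P* under 0.05, and *Gpnmb* was lower with the adjusted *P* alone (0.361% of all genes were lower).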

How the data were processed

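RNA-seq of RPE from 18 mice, 3 in each of 6 groups, was used, with groups taken from the sample labels. The authors mapped reads to GRCm38 and counted them with STAR, and what they deposited is a table of raw counts, in whole numbers, for every gene. The annotation and strand setting of the counting are not given in the sources used here, so overlapping genes and paralogs have uncertain counts. Each library is 1 mouse.

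Each comparison was fitted on its 6 libraries in edgeR 4.0.16 (R 4.3.3), using filterByExpr, TMM and the quasi-likelihood test, with Benjamini-Hochberg adjustment over all genes tested. Calls needed an adjusted *P* under 0.05 and a log2FC above 1 in size, and each SE follows from the F statistic of its log2FC. The script was tested on simulated data: of 200 genes changed by a log2FC of 2 in nSREBP2 versus GFP, 198 were recovered, with 5 false calls among 17987 genes. The changed genes were drawn from those above a minimum level, and recovery of log2FCs near the limit of 1 was not tested. DESeq2 1.42.0, its size factors within edgeR, other filters, all 18 libraries in one fit, a sex term (Y-linked genes above 10 CPM), a replicate block, calls by the adjusted *P* without the fold limit, and leaving out each library were alternatives. Positions and exon lengths are those of GENCODE M21, and promoters those of RefSeq. Members, lists and tests were chosen with earlier results of these data known. The contrast between nSREBP2 and hairpin effects, the ratios to *Csf1r* and the 12 motifs were added after the values were seen. The rule for values in every library took the 26 genes called in any comparison and 12 fixed genes, 33 in all, and from each further list at most the 3 called genes of largest change.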

Additional observations from a re-analysis of the deposited data

Results flagged for a closer look

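The effects of the 2 *Lrp2* hairpins, which share the ctrl sh libraries, differed for 9 genes when *Lrp2* sh2 was tested against *Lrp2* sh1 with edgeR, and each was higher with sh2. The log2FC was 1.97 for *Itgax*, 1.96 for *Ccl2*, 1.78 for *Ccr2*, 1.62 for *H2-Eb1*, 1.45 for *H2-Ab1*, 1.37 for *H2-Aa*, 1.32 for *Cd74*, 1.07 for *Itgam* and 1.07 for *Lgals3*. *Lrp2* sh2 replicate 1 was the highest library for 8 of these, and without it *Itgam*, *Lgals3*, *H2-Ab1* and *Cd74* were not called. Sex and hairpin cannot be told apart without that replicate, since the *Lrp2* sh2 libraries left all expressed Y-linked genes and no *Lrp2* sh1 library did. *Lgals3* also lost its call in DESeq2 and without *Lrp2* sh2 replicate 3 or *Lrp2* sh1 replicate 1 or 2, *Itgax* without *Lrp2* sh1 replicate 1, and *H2-Ab1* without *Lrp2* sh1 replicate 3. In the same comparison 9 of 11 rod genes were called higher (median log2FC 3.06), where 3.32% of all genes were. RPE genes summed to 794.6 to 1162 CPM with *Lrp2* sh2 and 1652 to 2344 CPM with *Lrp2* sh1 (median log2FC −1.32). Endothelial genes summed to 1381 to 1455 CPM with *Lrp2* sh2 and 1919 to 2045 CPM with *Lrp2* sh1 (median −0.47). The part of these in the result was not tested.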

How the results depend on the processing

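No log2FC of a called gene changed sign under any alternative. The count called in nSREBP2 versus GFP stayed within 1.5 times of 25 (23 to 30 with a library left out, 26 with DESeq2, 30 with sex as a term), but *Spp1*, *Cybb*, *Fcgr3*, *Fcgr1* and *Itgam* each lost the call under at least 1 of these. The other ranges with a library left out were 4 to 10 for *Lrp2* sh2 versus ctrl sh, 5 to 10 for *Lrp2* sh2 versus *Lrp2* sh1, 0 to 1 for ctrl sh versus uninjected (*Cd74*, without ctrl sh replicate 1) and 0 in the other 3. The adjusted *P* alone gave 1 gene in *Lrp2* sh1 versus ctrl sh, 15 in *Lrp2* sh2 versus ctrl sh, 1 in GFP versus uninjected, 9 in ctrl sh versus uninjected, 1 in ctrl sh versus GFP and 24 in *Lrp2* sh2 versus *Lrp2* sh1. With sex as a term, 11 were called in *Lrp2* sh2 versus ctrl sh, 14 in *Lrp2* sh2 versus *Lrp2* sh1 and 3 in ctrl sh versus uninjected, and the cause was not tested. Only uninjected and *Lrp2* sh2 held both sexes, so the sex term rests on those groups. Same-numbered libraries were not treated as pairs, since their deviations did not correlate above 0.1 in every pair of any comparison. The best match did share the number for replicates 1, 2 and 3 of ctrl sh versus GFP (r 0.197, 0.0687 and 0.2139). It also did for replicates 2 and 3 of *Lrp2* sh2 versus *Lrp2* sh1 (0.2344 and 0.2925), and elsewhere only for replicate 2 of GFP versus uninjected (0.1676). Whether these libraries share more than a number was not settled. The replicate block gave 26 in nSREBP2 versus GFP and 9 in each of the *Lrp2* sh2 comparisons. With 3 libraries per group, changes of scarce genes such as *Itgam* are poorly resolved.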
